A study of Homo sapiens with 12 samples.

Results

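The 10 genes described here encode the D cyclins CCND1, CCND2 and CCND3, their kinase partner CDK6, the inhibitors of cyclin-dependent kinases CDKN1A, CDKN1B, CDKN1C and CDKN2B, and the cyclins G CCNG1 and CCNG2. They were chosen by name, with earlier results of these data known. All 10 are on the array, with 30 of its 54675 probe sets. Each gene is represented by its brightest probe set, the one with the highest mean over all arrays. Testing was limited to genes at or above 4 on the log2 scale on 3 or more arrays, a level met by all 10 members and by 10784 of 19775 genes in all. Of the members' 30 probe sets, 22 reached that level.

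RNA was measured on 12 Affymetrix arrays of HK-2 cells, 3 in each of 4 groups, to look for expression changes that mark toxicity to kidney cells. The groups are control cultures given the vehicle for 12 h (control_12h) or 48 h (control_48h), and cultures given the treatment that the labels name Fk for the same times (Fk_12h and Fk_48h). The labels do not expand that name, and a dose is not used here. All groups had been seeded 24 h earlier, with 700000 cells and 2 ml of medium to a well, and were about 90% confluent when treatment began, and the medium in which the line was kept held 5 mM glucose, EGF at 10 ng/ml, hydrocortisone at 36 ng/ml and insulin at 5 µg/ml. HK-2 is a single immortalized line of human renal proximal tubular epithelium, made with papillomavirus genes whose products bind p53 and the retinoblastoma protein RB, which limits it as a model of the pathway described here. Arrays within a group are labelled as biological replicates without a statement of how the cultures were separated, so the p-values measure the spread between these arrays.

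In the G1 phase of the cell cycle, D cyclins, which growth factors raise, bind CDK4 or CDK6 and start the phosphorylation of RB, which releases E2F factors and lets cells enter S phase. CDKN2B (p15) blocks CDK4 and CDK6, while CDKN1A (p21), CDKN1B (p27) and CDKN1C (p57) bind complexes of cyclins with several kinases, CDK2 among them. The cyclins G are named for sequence likeness only: CCNG1 is a p53 target, and CCNG2 is raised in cells that stop dividing and is a target of FOXO factors. In kidney tubules some of these genes are known for their part in the arrest and the renewed division of cells after injury.

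Promoter windows of 250 bases before to 50 after a start site, from RefSeq on GRCh38.p14, were found for 7 of the 10 genes, with 11 windows. Windows of CCND1, CCND2 and CDKN1C are not used here. The windows below belong to the 3 genes among these 7 that rose with time in control cultures, and to CDK6, whose probe sets lay higher with Fk at 48 h. Capitals mark matches on either strand to the E-box CACGTG, the GC box GGGCGG and the CCAAT box CCAAT.
CDKN1A (chr6:36678464-36678763, plus strand): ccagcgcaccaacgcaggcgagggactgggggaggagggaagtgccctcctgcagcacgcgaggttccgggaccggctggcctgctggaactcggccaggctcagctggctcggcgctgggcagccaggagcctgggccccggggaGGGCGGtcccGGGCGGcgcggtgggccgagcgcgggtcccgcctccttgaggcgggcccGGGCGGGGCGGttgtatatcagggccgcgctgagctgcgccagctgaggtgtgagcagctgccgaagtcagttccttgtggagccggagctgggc
CCNG1 (chr5:163437321-163437620, plus strand): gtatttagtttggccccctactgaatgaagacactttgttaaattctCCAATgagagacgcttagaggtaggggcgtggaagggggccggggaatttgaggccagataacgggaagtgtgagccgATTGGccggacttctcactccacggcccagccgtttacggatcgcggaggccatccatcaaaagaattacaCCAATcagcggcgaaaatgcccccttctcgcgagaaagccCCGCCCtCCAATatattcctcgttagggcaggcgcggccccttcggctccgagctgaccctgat
CCNG2 (chr4:77156957-77157256, plus strand): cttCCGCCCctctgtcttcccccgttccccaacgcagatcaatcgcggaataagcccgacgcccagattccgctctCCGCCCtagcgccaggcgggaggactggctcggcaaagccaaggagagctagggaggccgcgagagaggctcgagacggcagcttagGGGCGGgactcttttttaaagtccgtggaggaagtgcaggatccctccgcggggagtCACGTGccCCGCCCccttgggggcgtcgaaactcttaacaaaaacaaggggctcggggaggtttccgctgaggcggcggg
CDK6 (chr7:92836524-92836823, minus strand): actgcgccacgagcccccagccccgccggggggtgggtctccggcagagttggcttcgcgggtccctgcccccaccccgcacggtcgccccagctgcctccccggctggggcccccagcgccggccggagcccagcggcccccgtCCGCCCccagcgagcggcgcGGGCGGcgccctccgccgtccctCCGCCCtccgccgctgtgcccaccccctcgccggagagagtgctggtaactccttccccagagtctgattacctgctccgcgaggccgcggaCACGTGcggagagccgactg

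The CDKN1A window holds 4 GC boxes, the last pair of which share a base, and CCNG1 holds 4 CCAAT boxes and 1 GC box. CCNG2 holds 4 GC boxes and 1 E-box, 30 bases before the start site, and the CDK6 window shown holds 3 GC boxes and 1 E-box, 30 bases after it. Another CDK6 window, starting at 92833910 on chromosome 7, holds none of these motifs. Of 35116 windows of the same length, 45% hold a GC box, 34.6% a CCAAT box and 7.26% an E-box. The FOXO motif GTAAACA, in 3.42% of all windows, matched 1 of the 11, a CCND3 window starting at 42048639 on chromosome 6, where it begins 2 bases before the start site. The E2F motifs TTTCCCGC and TTTGGCGC, in 2.27% of windows, had no match in these 11. A match is a run of letters and not a measured binding site.

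Before the results, a single array needs naming. Fk_12h replicate 3 correlated with the other arrays of its group at 0.942 and 0.946, which correlated with each other at 0.994, and its 28S ribosomal control probe set read 14.4 against 8.50 to 10.3 on the other 11 arrays. The members' differences and the list medians at 12 h are therefore also given without it. Of 12 proximal tubule markers measured, DPP4 and PAX8 reached the level set for testing, while CUBN, LRP2 and AQP1 stayed below 4 on all 12 arrays, so the transport genes that define this tubule segment were not above that level. All 6 epithelial markers reached it, as did COL1A1, DCN and LUM of 8 fibroblast markers, PECAM1 and CLDN5 of 6 endothelial markers and 0 of 5 leukocyte markers. The summed linear level of the 8 fibroblast markers ran from 1212 to 1882 in control_12h, 1762 to 2221 in Fk_12h, 848 to 2090 in control_48h and 928 to 2077 in Fk_48h. COL1A1, DCN and LUM made up nearly all of that sum, at log2 values of 7.4 or more. The other fibroblast markers read 3.46 or less. The summed endothelial markers ran from 65.3 to 68.7 in control_12h and 69.4 to 78.0 in Fk_12h, which do not overlap, and from 60.9 to 68.2 in control_48h and 61.5 to 68.5 in Fk_48h. These are dim signals: PECAM1 read 3.37 to 4.59 on the log2 scale, CLDN5 4.44 to 5.26 and the other endothelial markers 2.74 or less. The summed proximal tubule markers did not overlap between the times, with 3536 to 4466 in control_12h against 4511 to 6052 in control_48h and 2898 to 4449 in Fk_12h against 4758 to 5874 in Fk_48h. That sum is nearly all DPP4 (log2 values of 10.6 to 12.0) and PAX8 (9.96 to 11.4), as the other tubule markers read 4.47 or less. It therefore does not describe the tubule markers as a set. The epithelial (20370 to 28129) and leukocyte (26.3 to 28.4) sums overlapped between all groups. The part of these sums in the results was not tested. In RNA from whole cultures, fewer cells of a kind and less RNA per cell cannot be told apart.

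Most members differed with time in control cultures. In these cultures 6 of the 10 genes passed the test between 12 h and 48 h: CDKN1A, CDKN1C, CCNG1 and CCNG2 rose, and CCND1 and CCND3 fell. In all, 21.5% of the genes tested passed it (limma with Benjamini-Hochberg adjustment over 10784 genes, threshold 0.05), 10.6% higher and 10.9% lower. In Fk cultures 4 of 10 passed, against 23.2% of all genes: CDKN1A, CDKN1C and CCNG1 rose and CCND3 fell. The median log2 difference of the members was +0.55 in control cultures and +0.13 in Fk cultures, beside +0.01 and +0.02 over all genes tested.

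**Figure D1:**
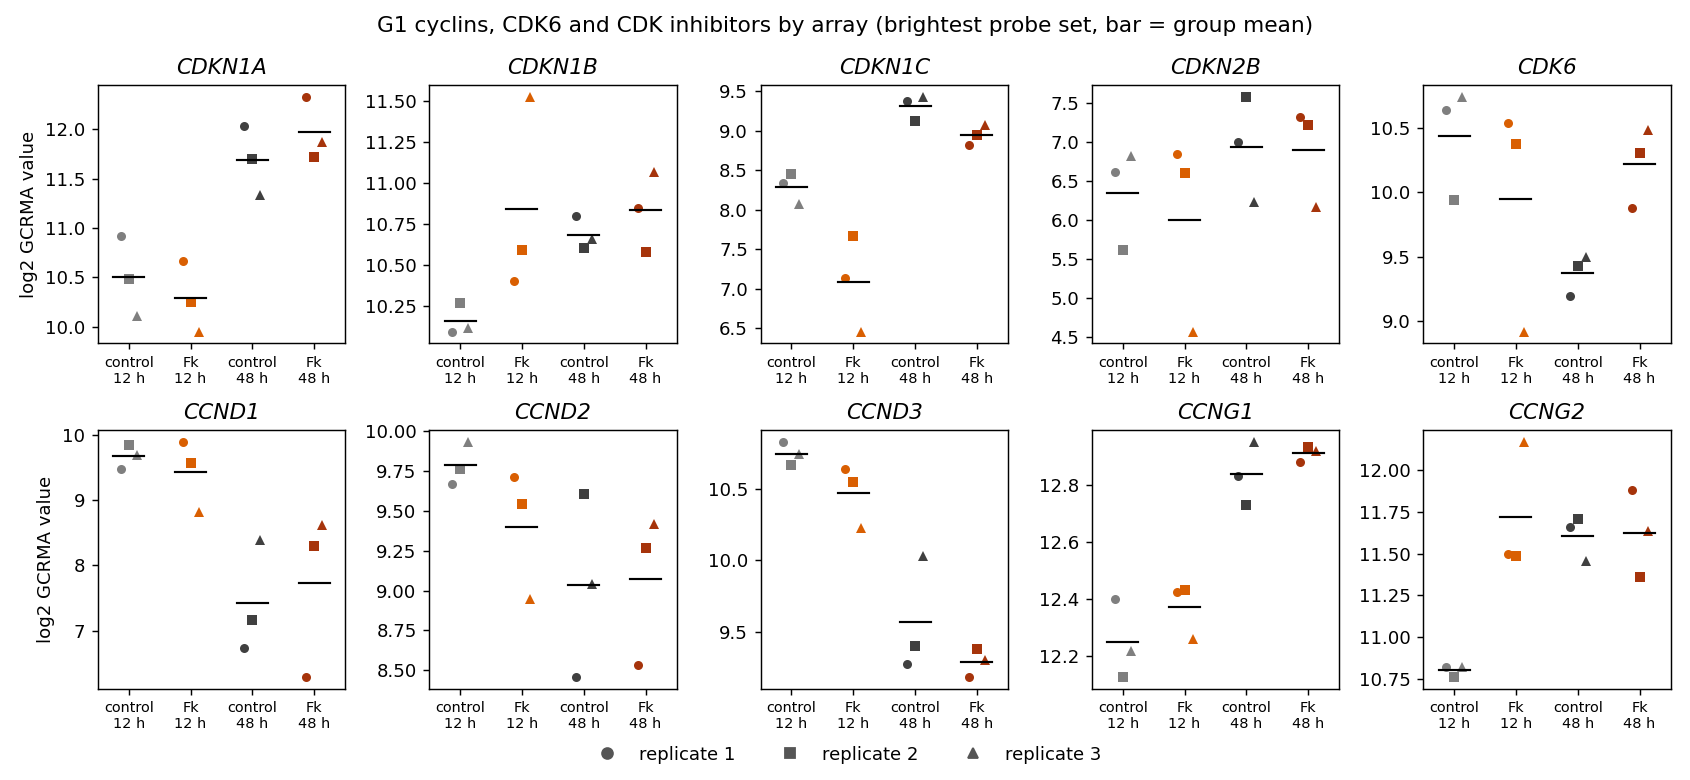
Log2 value of each gene's brightest probe set (y axis) on every array of the 4 groups (x axis); points are arrays, marker shapes are replicates, bars are group means of 3, and each gene has its own y scale. CDKN1A lay above 11.3 on every 48 h array and at 10.92 or less on every 12 h array, and CCND1 spread from 6.30 to 8.62 at 48 h.

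Among the D cyclins, CCND3 fell furthest relative to its spread. Its log2 values were 10.83, 10.66 and 10.74 in control_12h and 9.28, 9.40 and 10.03 in control_48h, a fall of 2.26-fold (-1.17 ± 0.19 on the log2 scale, SE; limma adjusted p = 0.00323). With Fk it read 10.63, 10.55 and 10.23 at 12 h and 9.19, 9.39 and 9.30 at 48 h, also 2.26-fold (-1.18 ± 0.19, limma adjusted p = 0.00298). Every 48 h array lay below every 12 h array under either treatment. Averaged with a dim probe set of the gene, the differences were -0.59 and -0.60 and still passed.

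CCND1, the D cyclin best known as a growth factor target, had the largest fold among the members in control cultures and also the widest spread at 48 h. Its values were 9.47, 9.85 and 9.69 in control_12h and 6.74, 7.17 and 8.39 in control_48h, a fall of 4.72-fold (-2.24 ± 0.59, limma adjusted p = 0.0240). In Fk cultures it read 9.89, 9.57 and 8.82 at 12 h and 6.30, 8.30 and 8.62 at 48 h, a difference of -1.69 ± 0.59 that missed the threshold (limma adjusted p = 0.0612). The groups did not overlap under either treatment. The second CCND1 probe set differed by -2.21 in control cultures and by -1.60 in Fk cultures, and passed in both when every probe set was tested (limma adjusted p = 0.0117 and 0.0362).

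Replicate 1 was the lowest and replicate 3 the highest CCND1 array in both 48 h groups. The same arrays stood apart for a list of E2F-regulated S phase genes described further on: its median deviation from the other 2 arrays of the group was -0.66 on control_48h replicate 1, +0.74 on control_48h replicate 3, -1.03 on Fk_48h replicate 1 and +0.77 on Fk_48h replicate 3. Its part in the spread of CCND1 was not tested.

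CCND2, the remaining D cyclin, did not pass in either time course. It read 9.67, 9.76 and 9.93 in control_12h and 8.46, 9.61 and 9.04 in control_48h, which do not overlap (-0.75 ± 0.32, limma adjusted p = 0.114). In Fk cultures the values were 9.71, 9.54 and 8.95 and then 8.54, 9.27 and 9.42, which do. Its other probe sets above the level for testing differed by -0.41 and -0.01 in control cultures and by -0.95 and -0.25 in Fk cultures. The one at -0.95 did not overlap between the times there, and it did not pass when every probe set was tested (limma adjusted p = 0.124).

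CDK6, the kinase these cyclins activate, read 10.64, 9.94 and 10.74 in control_12h and 9.20, 9.43 and 9.50 in control_48h. The groups did not overlap, and the difference of -1.06 ± 0.39 missed the threshold (limma adjusted p = 0.0729). It passed without Fk_12h replicate 3, which enters only the shared spread of this comparison (SE 0.22, limma adjusted p = 0.00770). All 5 CDK6 probe sets that could be tested lay lower at 48 h, with differences of -1.57 to -0.96, and 2 of them passed when every probe set was tested. In Fk cultures CDK6 read 10.54, 10.37 and 8.92 at 12 h and 9.88, 10.30 and 10.49 at 48 h, which overlap (+0.28 ± 0.39). Without Fk_12h replicate 3, the array at 8.92, that value became -0.24.

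Among the inhibitors, CDKN1A rose under both treatments. Its values were 10.92, 10.48 and 10.11 in control_12h and 12.03, 11.69 and 11.34 in control_48h, a rise of 2.27-fold (+1.18 ± 0.27, limma adjusted p = 0.0139). In Fk cultures it went from 10.67, 10.25 and 9.95 to 12.33, 11.71 and 11.87, a rise of 3.20-fold (+1.68 ± 0.27, limma adjusted p = 0.00302). CDKN1A has a single probe set on this array, and its groups did not overlap between the times.

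CDKN1C also rose under both. In control cultures it read 8.34, 8.45 and 8.07 at 12 h and 9.38, 9.12 and 9.43 at 48 h, a rise of 2.03-fold (+1.02 ± 0.26, limma adjusted p = 0.0195). In Fk cultures it read 7.13, 7.67 and 6.46 and then 8.82, 8.94 and 9.07, a rise of 3.63-fold (+1.86 ± 0.26, limma adjusted p = 0.00141). All 4 of its testable probe sets passed in both time courses, with differences of +0.78 to +1.02 in control cultures and +1.25 to +1.86 in Fk cultures. The mean over all 5 probe sets, with the dim one, gave +1.197 in Fk cultures.

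CDKN1B and CDKN2B did not pass with all arrays. CDKN1B read 10.10, 10.27 and 10.12 in control_12h and 10.80, 10.60 and 10.66 in control_48h, which do not overlap (+0.53 ± 0.25, limma adjusted p = 0.158). Without Fk_12h replicate 3, which enters only the shared spread of that comparison, CDKN1B passed (SE 0.13, limma adjusted p = 0.0170). In Fk cultures it read 10.41, 10.59 and 11.53 and then 10.85, 10.58 and 11.07, a difference of -0.01 ± 0.25, or +0.33 without Fk_12h replicate 3. CDKN2B ranged from 4.57 to 7.58 over the 12 arrays and overlapped between the times under both treatments, with differences of +0.58 ± 0.61 and +0.90 ± 0.61. Its lowest value, 4.57, came from Fk_12h replicate 3, and without that array the difference in Fk cultures was +0.18.

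Of the cyclins G, CCNG1 rose by a small and even amount. It read 12.40, 12.13 and 12.22 in control_12h and 12.83, 12.73 and 12.95 in control_48h, a rise of 1.51-fold (+0.59 ± 0.11, limma adjusted p = 0.00641). In Fk cultures it went from 12.42, 12.43 and 12.26 to 12.88, 12.94 and 12.92, 1.46-fold (+0.54 ± 0.11, limma adjusted p = 0.00850).

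CCNG2 rose with time in control cultures, from 10.82, 10.76 and 10.83 to 11.66, 11.71 and 11.46. That is 1.74-fold (+0.80 ± 0.19, limma adjusted p = 0.0168). In Fk cultures it was already at 11.50, 11.49 and 12.17 at 12 h and read 11.88, 11.36 and 11.63 at 48 h (-0.09 ± 0.19, limma adjusted p = 0.759; +0.13 without Fk_12h replicate 3). The mean over all 5 CCNG2 probe sets, dim ones included, gave +0.45 in control cultures and passed. With every probe set tested, 2 of the 3 testable ones passed in control cultures (+0.80, limma adjusted p = 0.0202, and +0.66, 0.0234), and the remaining one did not (+0.52, limma adjusted p = 0.167).

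**Figure D2:**
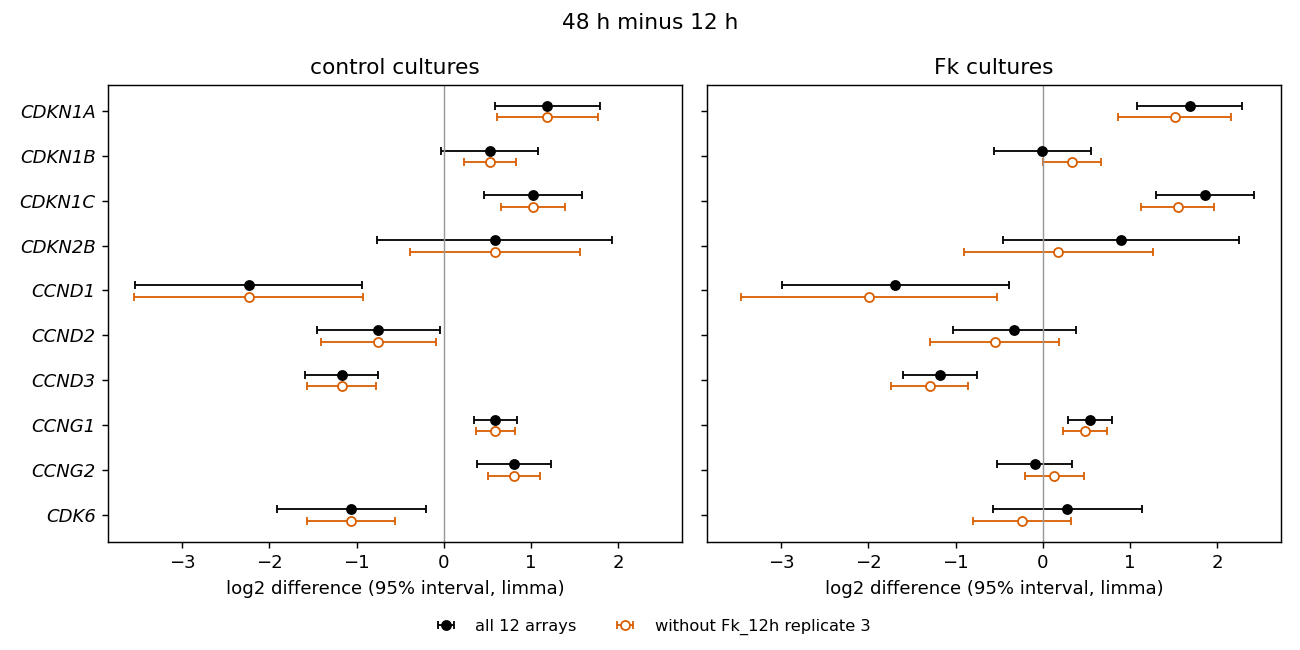
Log2 difference of 48 h minus 12 h (x axis, point with its 95% limma interval) for each gene in control cultures (left) and Fk cultures (right), over all 12 arrays (filled) and without Fk_12h replicate 3 (open). CCND3 lay near -1.2 in both panels, while CCNG2 lay at +0.80 in control cultures and -0.09 in Fk cultures.

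Between 12 h and 48 h, 9 of the 10 members did not overlap in control cultures, against 50.0% of all genes tested, and 5 of 10 in Fk cultures, against 38.7%. Without Fk_12h replicate 3 the latter was 6 of 10, against 56.1%. The number of calls in the control time course moved with the arrays kept, for the members and for all genes. Leaving out control_12h replicate 3 or control_48h replicate 1 left 2 of 10 called, CCND3 and CCNG1. In these fits 1060 and 1084 of 10784 genes passed, against 2314 with all arrays. Leaving out Fk_12h replicate 3, which is not in this time course but enters the shared spread, gave 8 members beside 3438 genes (31.9%). It added CDKN1B (limma adjusted p = 0.0170) and CDK6 (0.00770), whose differences stayed the same. A fit of the control groups alone also gave 8 members, beside 3125 genes. CCND1 missed the threshold without any one of control_12h replicates 1, 2 and 3 and control_48h replicates 1 and 2 (limma adjusted p = 0.0567 to 0.0922, differences of -2.34 to -1.89). With all arrays, it also missed the threshold when dim genes were not filtered out. CCNG2 missed it without control_12h replicate 2 or 3 or control_48h replicate 1 or 2 (0.0541 to 0.0633), CDKN1C without control_12h replicate 1 or 3 or control_48h replicate 1 (0.0521 to 0.0769), and CDKN1A without control_12h replicate 3 (0.0587) or control_48h replicate 1 (0.0585). In Fk cultures CCND1 passed without Fk_12h replicate 3 (-1.99, limma adjusted p = 0.0497), control_48h replicate 3 (-1.69, 0.0468) or Fk_48h replicate 3 (-2.13, 0.0328).

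At 12 h of Fk, CCNG2 lay 1.88-fold above control and CDKN1C 2.30-fold below it, and neither passed the test over all genes. With limma and Benjamini-Hochberg adjustment, 0 of 10 members and 0.00% of the 10784 genes passed. At an unadjusted p under 0.05 there were 3 members, CCNG2, CDKN1C and CDKN1B, beside 6.71% of all genes (724). The values of 4 members did not overlap between Fk_12h and control_12h, CCNG2 and CDKN1B higher and CDKN1C and CCND3 lower with Fk, against 16.4% of all genes. Both comparisons of the 12 h controls use the same 3 arrays, so this one and the control time course are not independent.

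CCNG2 at 11.50, 11.49 and 12.17 lay above all control_12h arrays, which sat within 10.76 to 10.83. The difference was +0.91 ± 0.19 (95% interval +0.48 to +1.34, unadjusted p = 7.3e-04, limma adjusted p = 0.575). The 3 testable CCNG2 probe sets gave +0.91, +0.89 and +0.94. Without Fk_12h replicate 3, its highest array, the difference was +0.69 ± 0.15 (limma adjusted p = 0.411).

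CDKN1C at 7.13, 7.67 and 6.46 lay below control_12h, whose lowest array read 8.07. The difference was -1.20 ± 0.26 (95% interval -1.77 to -0.64, unadjusted p = 7.4e-04, limma adjusted p = 0.575). Its 3 other testable probe sets gave smaller differences, -0.61, -0.48 and -0.44, all in the same direction. Without Fk_12h replicate 3, the lowest array, the value was -0.89 ± 0.19 (limma adjusted p = 0.399).

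CDKN1B was higher with Fk by +0.68 ± 0.25 (95% interval +0.12 to +1.24, unadjusted p = 0.0211, limma adjusted p = 0.675). Fk_12h replicate 3 at 11.53 lay 1.03 above the mean of the other 2 arrays of its group, and without it the difference was +0.34 (limma adjusted p = 0.624). CCND3 was lower by -0.27 ± 0.19, or -0.15 without that array. CDKN1A (-0.21 ± 0.27), CCND2 (-0.39 ± 0.32) and CCNG1 (+0.12 ± 0.11) overlapped between the groups. Without that array they differed by -0.04, -0.16 and +0.18. The other testable CCND2 probe sets gave +0.30 and -0.11 over all arrays, so they did not share a direction.

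For CCND1, CDK6 and CDKN2B the direction at 12 h rested on the same array. Over all arrays the differences were -0.24 ± 0.59, -0.50 ± 0.39 and -0.35 ± 0.61. Fk_12h replicate 3 deviated from the other 2 arrays of its group by -0.91, -1.54 and -2.15 in these genes, and without it the differences were +0.06, +0.02 and +0.37. When limma weighted arrays by quality, giving it a weight of 0.121, CDKN1C (-0.95, limma adjusted p = 0.0248) and CCNG2 (+0.70, limma adjusted p = 0.0244) passed at 12 h, beside 156 genes in all. With it left out 0 of 10 members passed, beside 0.0278% of all genes, and 5 of 10 did not overlap, CCNG1 in addition, against 37.1%.

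**Figure D3:**
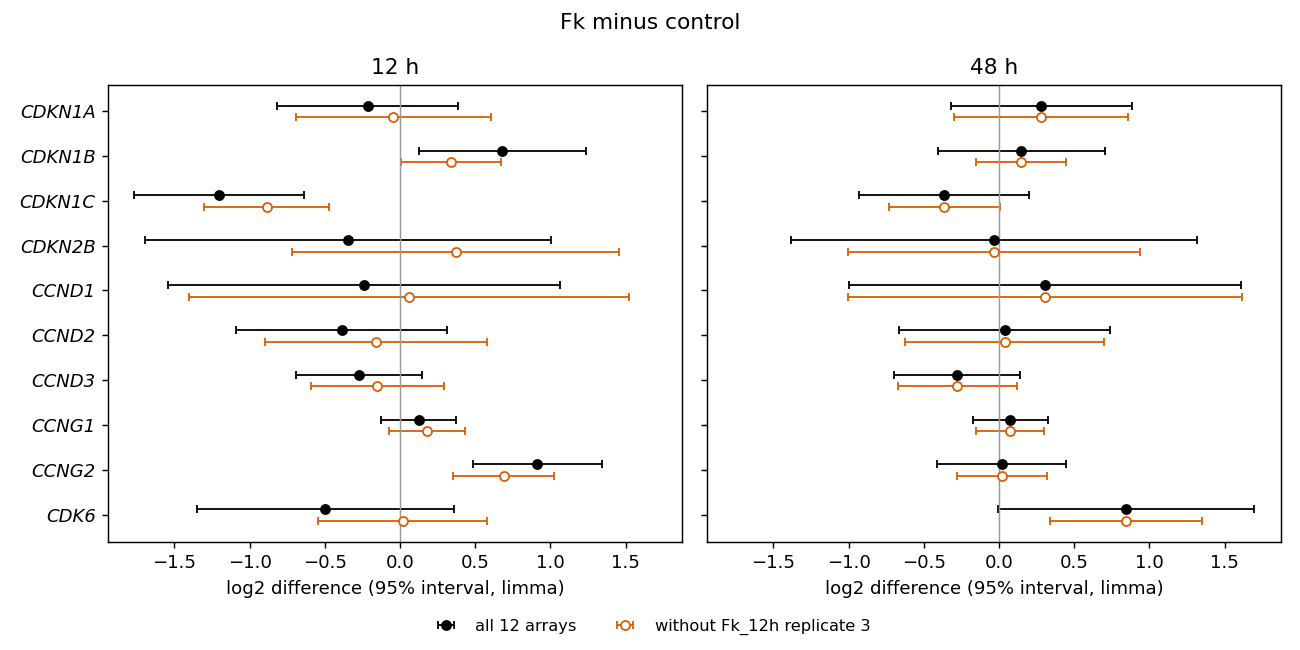
Log2 difference of Fk minus control (x axis, point with its 95% limma interval) for each gene at 12 h (left) and 48 h (right), over all 12 arrays (filled) and without Fk_12h replicate 3 (open). At 12 h the intervals of CDKN1B, CDKN1C and CCNG2 exclude 0 before adjustment in both fits, and at 48 h the CDK6 interval does so without that array.

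At 48 h of Fk the member farthest from control was CDK6. With limma and Benjamini-Hochberg adjustment 0 of 10 members and 0.00% of all genes passed, and at an unadjusted p under 0.05 there were 0 members beside 5.18% of all genes (559). The arrays of 2 members did not overlap between the groups, CDK6 higher and CDKN1C lower with Fk, against 10.2% of all genes. CDK6 read 9.20, 9.43 and 9.50 in control_48h and 9.88, 10.30 and 10.49 in Fk_48h. That is 1.80-fold (+0.84 ± 0.39, 95% interval -0.01 to +1.70, unadjusted p = 0.0519, limma adjusted p = 0.964).

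All 5 testable CDK6 probe sets lay higher with Fk at 48 h, by 0.66 to 1.04, and all are reads of the same RNA, not replicates. Leaving out Fk_12h replicate 3, which is not in this comparison but enters the shared spread, narrowed the CDK6 interval to +0.34 to +1.35 (SE 0.22, limma adjusted p = 0.319). CDKN1C was lower by -0.36 ± 0.26, with 9.38, 9.12 and 9.43 in control_48h against 8.82, 8.94 and 9.07. Its other testable probe sets gave -0.04, +0.09 and +0.03, so only the brightest CDKN1C probe set of the 4 showed a difference of that size.

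The other 8 members overlapped at 48 h. CDKN1A differed by +0.28 ± 0.27, CDKN1B by +0.15 ± 0.25 and CDKN2B by -0.03 ± 0.61. The D cyclins differed by +0.31 ± 0.59 for CCND1, +0.04 ± 0.32 for CCND2 (-0.24 and -0.35 on its other testable probe sets) and -0.28 ± 0.19 for CCND3. CCNG1 differed by +0.07 ± 0.11 and CCNG2 by +0.02 ± 0.19, with a 95% interval for CCNG2 of -0.41 to +0.45. The widest of these intervals, those of CDKN2B (-1.38 to +1.31) and CCND1 (-0.998 to +1.61), leave room for more than a log2 unit in either direction or close to it.

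**Figure D4:**
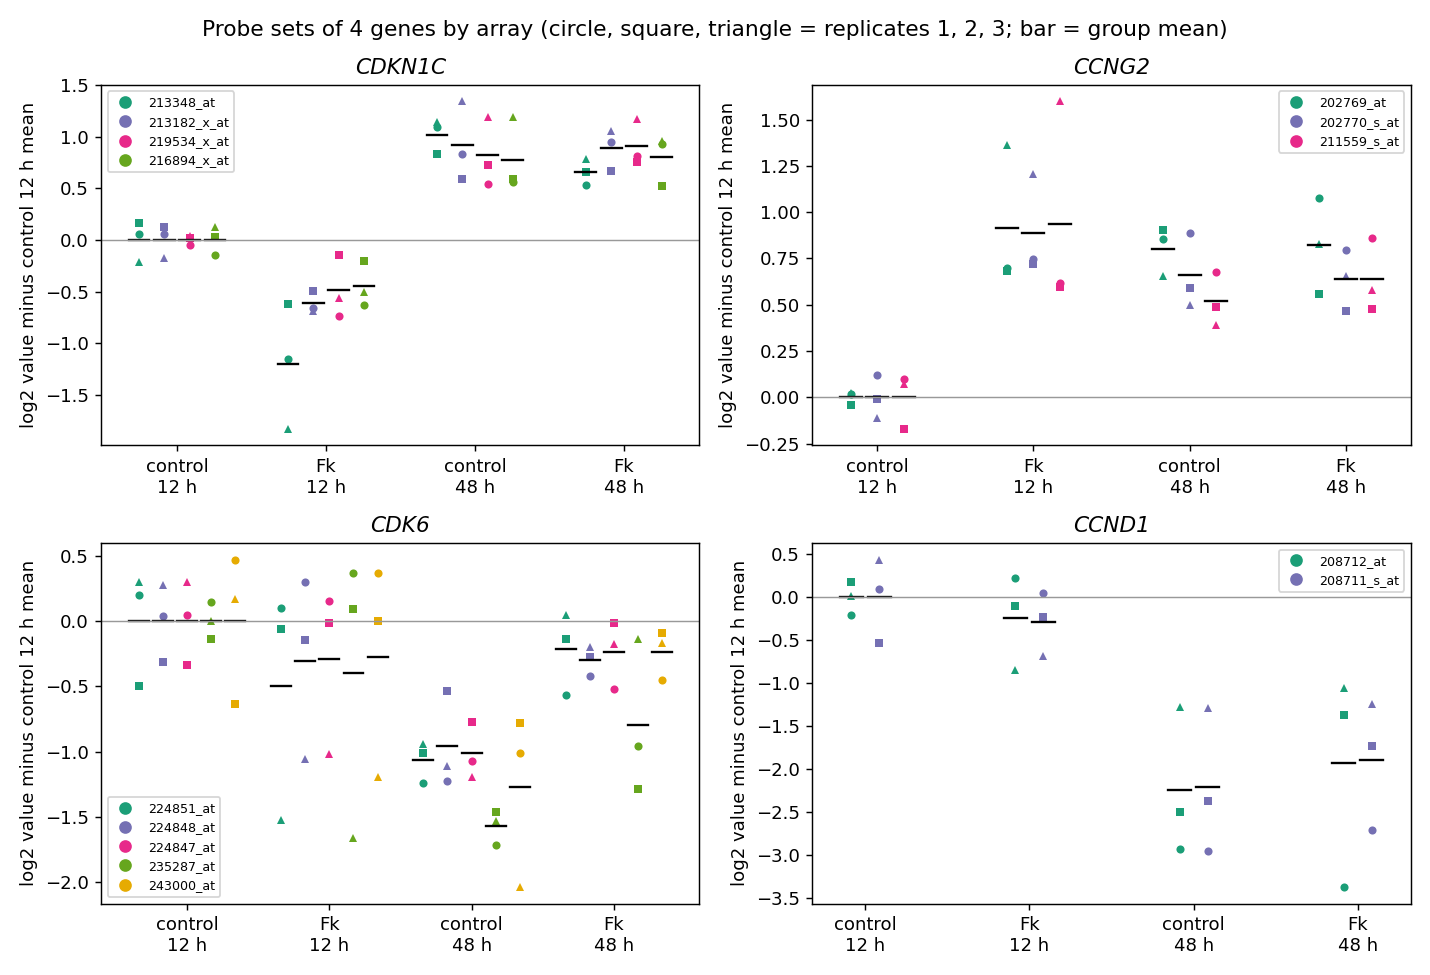
Log2 value minus the control_12h mean of the same probe set (y axis) on every array of the 4 groups (x axis), for the testable probe sets of CDKN1C, CCNG2, CDK6 and CCND1; colours are probe sets, marker shapes are replicates and bars are group means of 3. At 12 h of Fk the 3 CCNG2 means lie together (+0.89 to +0.94) while the 4 CDKN1C means spread from -1.20 to -0.44, and the third replicate is the lowest for all 5 CDK6 probe sets.

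Whether the Fk effect differed between the times was tested directly. For CCNG2 the effect at 48 h minus that at 12 h was -0.90 ± 0.27 (95% interval -1.50 to -0.29, unadjusted p = 0.00796), for CDK6 it was +1.34 ± 0.54 (+0.13 to +2.55, unadjusted p = 0.0327), and for CDKN1C it was +0.84 ± 0.36 (unadjusted p = 0.0415). The limma adjusted p was 0.996 for each, and 0 of 10784 genes (0.00%) passed, with 357 (3.31%) at an unadjusted p under 0.05. These are also the tests of whether the time courses of CCNG2, CDK6 and CDKN1C differed between Fk and control cultures. Without Fk_12h replicate 3 the values were -0.67, +0.83 and +0.52.

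Averaged over both times, CDKN1C differed by -0.78 ± 0.18 with Fk (unadjusted p = 0.00134, limma adjusted p = 0.277), CCNG2 by +0.47 ± 0.14 (limma adjusted p = 0.403) and CDKN1B by +0.41 ± 0.18 (limma adjusted p = 0.594). With Fk_12h replicate 3 left out the values were -0.62 for CDKN1C (limma adjusted p = 0.145), +0.35 for CCNG2 (0.223) and +0.24 for CDKN1B (0.399), and CDK6 moved from +0.17 ± 0.27 to +0.43 ± 0.17 (limma adjusted p = 0.372). The other testable CDKN1C probe sets gave -0.32, -0.20 and -0.21, and the mean over all 5 gave -0.30. None of the members passed, and 1 of 10784 genes (0.00927%) did, with 856 (7.94%) at an unadjusted p under 0.05. On the brightest CDKN1C probe set all 6 Fk arrays read lower than every control array of their own time, while the other 3 did so at 12 h and overlapped at 48 h. The brightest CCNG2 probe set stood higher in this way at 12 h and overlapped at 48 h.

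The other genes of the G1/S machinery, from a list of 32 of which 30 were tested, changed in part with time. In control cultures 4 rose and 10 fell, and in Fk cultures 5 rose and 11 fell, with medians of -0.17 and -0.19. Of all genes 10.6% rose and 10.9% fell in control cultures, and 11.5% rose and 11.7% fell in Fk cultures. The 4 with the smallest p were the same in both: CDC25A, the phosphatase that activates CDK2 (log2 differences of -2.14 in control and -2.34 in Fk cultures), the E cyclins CCNE1 (-2.15 and -2.40) and CCNE2 (-2.67 and -3.15), and SKP2, the ubiquitin ligase subunit that marks CDKN1B for destruction (-2.69 and -2.51). The 4 that rose in control cultures, named after their values were seen, were CCNH (+0.73), CDK4 (+0.44), E2F5 (+0.66) and CDK7 (+1.09); in Fk cultures they were CCNH (+0.82), CDK4 (+0.39), RBL2 (+0.63), FBXO31 (+0.59) and E2F5 (+0.64). CDK4 also binds D cyclins, and RBL2 is a relative of RB. Leaving out single arrays gave 7 to 12 falls in control and 8 to 13 in Fk cultures. Over these fits 1060 to 3438 genes passed in all in control cultures (2314 with all arrays) and 1297 to 2787 in Fk cultures (2500 with all arrays). A single rise was left in control cultures without control_12h replicate 2 or 3 or control_48h replicate 1 or 2, and 1 to 3 were left in Fk cultures without Fk_12h replicate 1 or 2 or any Fk_48h array. At 12 h and at 48 h of Fk 0 of 30 passed in limma, and 0 had an unadjusted p under 0.05. The median at 12 h was +0.02, or +0.00077 without Fk_12h replicate 3.

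The E2F-regulated S phase genes, which act downstream of the D cyclins, mostly fell with time. Of 19 tested, 14 fell and 0 rose in control cultures (median -1.19), and 17 fell and 0 rose in Fk cultures (median -1.42), against 10.9% and 11.7% of all genes that fell. Among them were POLA1, a DNA polymerase subunit (-1.22 and -1.26), FEN1, a flap nuclease (-1.44 and -1.31), and GINS1, of the replicative helicase (-1.93 and -2.15). Without control_12h replicate 1 or 3, or control_48h replicate 1, 6 of 19 fell in control cultures, and without control_12h replicate 2 or control_48h replicate 2, 7 did. In these fits 1060 to 1290 genes passed in all, against 2314 with all arrays, and the list median was -1.22 to -0.91. In Fk cultures leaving out single arrays gave 11 to 17, the lowest without Fk_48h replicate 1, where 1297 genes passed in all against 2500 with all arrays. At 12 h of Fk 0 of 19 passed in limma, with 1 at an unadjusted p under 0.05 (FEN1, -0.53), and the median of -0.06 became +0.03 without Fk_12h replicate 3. At 48 h of Fk 18 of 19 were lower than in control (median -0.21) and 0 passed in limma, with 0 at an unadjusted p under 0.05. Leaving out Fk_48h replicate 1 turned that median to +0.12, and leaving out control_48h replicate 3 to +0.01.

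**Figure D5:**
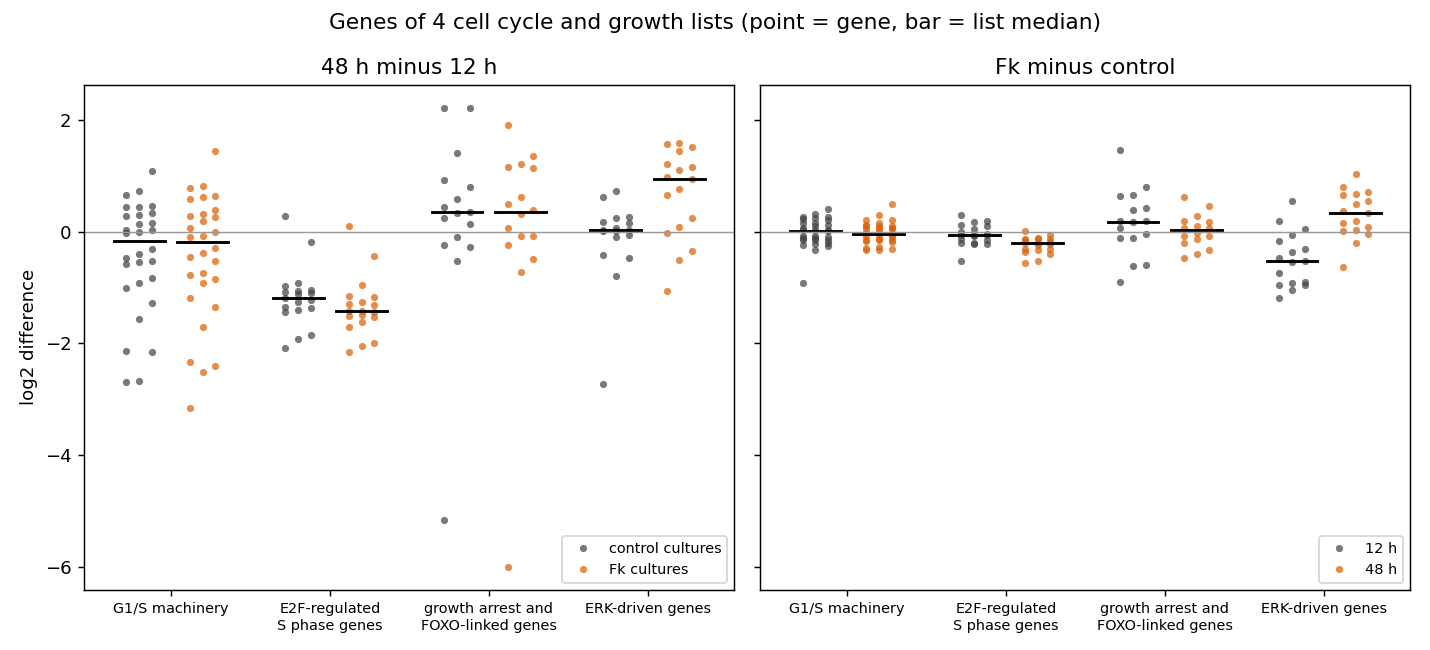
Log2 difference of every tested gene (points) of 4 gene lists, with the list median (bar), for 48 h minus 12 h in control and Fk cultures (left) and for Fk minus control at 12 h and 48 h (right). The S phase genes sit at medians of -1.19 and -1.42 on the left, and on the right the ERK-driven genes have medians of -0.52 at 12 h and +0.33 at 48 h.

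The genes whose pattern over the 12 arrays was most like a member's were found by the root mean square difference between values centred on each gene's own mean, for members whose SD over the arrays reached the median SD of all genes tested (0.336), which left out CCNG1 (0.313). Those nearest to CCND1 were CTHRC1 (0.293), TRIP13 (0.313) and RRM2 (0.313), and those nearest to CCND2 were G3BP1 (0.184), E2F3 (0.198) and SLC9A3-OT1 (0.205). For CCND3 they were PITRM1 (0.147), ICMT (0.166) and FAM111A (0.166), and for CDK6 LIF (0.228), TRAF3 (0.246) and PMEPA1 (0.257). The genes nearest to CDKN1A were EPB41 (0.157), NPC1 (0.229) and RCOR3 (0.235), and to CDKN1B NBPF3 (0.164), ATP23 (0.174) and ZMYM2 (0.177). CDKN1C was nearest to OGT (0.336), STX7 (0.345) and DEPTOR (0.348), CDKN2B to MOCS3 (0.311), CCDC186 (0.330) and NEDD4 (0.346), and CCNG2 to TOGARAM1 (0.151), DTWD1 (0.173) and KLHL28 (0.177). These distances describe the 12 arrays, Fk_12h replicate 3 included, and carry no test.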

How the data were processed

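Total RNA of 12 HK-2 cultures was hybridised to Affymetrix arrays, 1 array per culture and 3 per group. Each probe set has a value that the authors made with GCRMA, as the submitters' processing notes name it, and deposited on the log2 scale, judging by its range. Which GCRMA version was used, and on which set of arrays it was run, is not given in the sources used here. Array medians ran from 2.85 to 2.94. Of 54675 probe sets, 41097 carry 1 gene symbol in the platform annotation, 1801 several and 11777 none.

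Tests used limma 3.58.1 in R 4.3.3 on the deposited values, as 1 fit of 4 group means to the 12 arrays, two-sided eBayes moderation with 2.44 prior beside 8 residual degrees of freedom, and Benjamini-Hochberg adjustment over the 10784 genes tested, with a threshold of 0.05. With 3 arrays a group, the median 95% interval of an Fk effect reached 0.447 to either side, which limits the precision. A second fit took the 19204 probe sets above the level as features. The test was checked on simulated data with independent normal noise of the same spread on all arrays of a gene. That check does not cover an array that stands apart, as Fk_12h replicate 3 does, or deviations shared between arrays. Beside the reported setting, 24 alternatives were run, 12 of which left out 1 array.

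The 10 genes, the lists, the tests and the rule for named genes were chosen with earlier results of these data known. All 10 genes are named, with up to 4 genes of smallest p per list and contrast and the 3 genes nearest to each member, apart from the rises named as seen. Motifs were counted and figures drawn with Python 3.11.15, pandas 2.3.3 and matplotlib 3.10.9.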

Additional observations from a re-analysis of the deposited data

How the results depend on the processing

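With array quality weights, which gave Fk_12h replicate 3 a weight of 0.121, 2 members passed at 12 h of Fk (CDKN1C at -0.95 and CCNG2 at +0.70, beside 156 genes in all against 0), 1 passed for the mean Fk effect (CDKN1C at -0.61, beside 527 genes against 1), and 94 genes passed at 48 h against 0. With probe sets ending in _x_at or _s_at left out, which removes CDKN1A, CCND2 and CCNG1, 2 of 7 members passed in the Fk time course, beside 1756 of 7949 genes. Leaving out single arrays gave 2 to 8 members in the control time course, beside 1060 to 3438 genes. Array weights and a fit of the control groups alone each gave 8, beside 4920 and 3125 genes. The mean of a gene's probe sets gave 7, beside 2208 of 9937 genes. Without the filter on dim genes 5 passed, beside 1631 of 19775. In the Fk time course a fit of its own groups alone gave 3, beside 831 genes. There CCNG1 missed the threshold (limma adjusted p = 0.0528). Over all settings, 1060 to 4920 genes passed in the control time course (2314 as reported) and 831 to 5345 in the Fk time course (2500 as reported).

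Directions that turned belong to differences that passed under no setting. With array weights, CDKN2B read +0.27 and CCND1 +0.093 at 12 h, CCND2 -0.074 and CCNG2 -0.22 at 48 h, and CDKN1B +0.14 and CDK6 -0.15 in the Fk time course. With the mean of a gene's probe sets, CDKN2B read +0.082 and CCND2 -0.13 at 48 h and CDK6 -0.092 in the Fk time course. Centring on medians gave CCNG2 -0.015 at 48 h, and repeated quantile normalization gave CCND2 -0.0029. Leaving out single arrays gave, at 12 h, CDKN2B -0.76 to +0.37, CCND1 -0.47 to +0.062 and CDK6 -0.79 to +0.017; at 48 h, CDKN2B -0.39 to +0.33, CCND1 -0.14 to +1.03, CCND2 -0.25 to +0.32 and CCNG2 -0.11 to +0.15; and in the Fk time course, CDKN1B -0.23 to +0.33, CCNG2 -0.22 to +0.13 and CDK6 -0.24 to +0.57. The causes were not tested.

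CCND3 and CCNG1 passed in the control time course, and CDKN1A, CDKN1C and CCND3 in the Fk time course, under every setting that gave a value. The mean of probe sets, which averages in dim ones, put CCND3 at -0.59 and -0.60, CCNG2 in control cultures at +0.45, and CDKN1C and CCNG2 at 12 h of Fk at -0.55 and +0.47.

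Replicate numbers are not stated to pair the cultures, and deviations of same-numbered Fk and control arrays correlated at 0.04, 0.27 and 0.16 at 12 h and at 0.80, -0.03 and 0.61 at 48 h. A replicate block within time left 0 members called in each Fk comparison (1 gene in all at 12 h, 0 at 48 h). With a block across times, 4 passed in each time course, beside 1622 genes in control and 1851 in Fk cultures (2314 and 2500 as reported). CCND1 (limma adjusted p = 0.0613) and CDKN1C (0.0534) no longer passed in control cultures.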

Other observations

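Of 16 tested genes linked to growth arrest and FOXO factors, 4 passed in control cultures and 12 did not, beside 21.5% of all genes that passed. In these cultures 3 rose and 1 fell: SESN2, a stress-induced inhibitor of mTORC1, by +2.22 ± 0.30 (log2, SE), GADD45A, which is induced by DNA damage and other stress, by +2.21 ± 0.36, and BTG1, an antiproliferative factor, by +1.41 ± 0.17, while TXNIP, an arrestin that limits glucose uptake, fell by 5.17 (limma adjusted p of 0.00327 or less for each). In Fk cultures 5 rose and 1 fell, with BTG1 at +1.16, GADD45A at +1.92, SESN2 at +1.35 and TXNIP at -6.00; RBL2 (+0.63) and IRS2 (+1.14), named after their values were seen, are the others that rose. Leaving out Fk_12h replicate 3 gave 6 rises and 2 falls in control cultures and 4 and 2 in Fk cultures. In that fit 31.9% and 25.8% of all genes passed. In Fk cultures 3 rose without Fk_48h replicate 2 or 3, where 1422 and 2757 genes passed in all, against 2500 with all arrays. With all arrays, 10.6% of all genes rose in control and 11.5% in Fk cultures. At 12 h and at 48 h of Fk 0 of 16 passed in limma. At an unadjusted p under 0.05 there were 3 at 12 h, beside 6.71% of all genes, and 0 at 48 h, beside 5.18%. The list median was +0.18 at 12 h, or +0.10 without Fk_12h replicate 3, and +0.02 at 48 h.

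ERK-driven genes, a list of growth factor targets, had a median of -0.52 at 12 h of Fk, with 14 of 17 below control, and 0 passed in limma (1 at an unadjusted p under 0.05, ETV4 at +0.54). On Fk_12h replicate 3 the list lay at a median of -2.15 from the other 2 arrays of its group, where CCND1 deviated by -0.91, and without that array its median was +0.20. At 48 h its median was +0.33, with 14 of 17 above control and 0 passing (0 at an unadjusted p under 0.05). In Fk cultures 2 of 17 rose with time, ETV5 (+0.97) and EREG (+1.59), a share near the 11.5% of all genes that rose. In that time course 0 genes of the list rose without Fk_48h replicate 1 or 2, 1 without Fk_12h replicate 2, Fk_48h replicate 3 or control_12h replicate 1, and 3 without Fk_12h replicate 1. Without Fk_12h replicate 3, 2 rose and 2 fell. Over these fits 1297 to 2787 genes passed in all, against 2500 with all arrays. As reported, 0 of 17 passed in control cultures (2 at an unadjusted p under 0.05, FOSL1 at -2.73 and ETV5 at +0.62).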
